A study of Caenorhabditis elegans with 4 samples.

Results

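SEM-4 binding on chromosome IV of Caenorhabditis elegans was described from 1552 of the 7554 regions in a combined ChIP-seq list, namely every region that the list places on that chromosome. Within the list, a region is a member by its position alone, whatever its width or strength. The series holds 2 ChIP libraries and 2 input libraries from L2 larvae of the hermaphrodite strain OP57, which carries the unc-119(ed3) mutation and wgIs57, a transgene in which sem-4 is fused to TY1, EGFP and FLAG tags and which also holds unc-119. Cultures were kept at 20 °C, and formaldehyde at 2% was used to crosslink protein to DNA before sonication. Chromatin was collected with anti-GFP antibodies, and 10% of the extract was kept as input, the whole genomic DNA. Inputs and ChIP libraries share the mutation and the transgene, and no library from worms without the tagged protein was analysed here. Whole animals were used, so cells with and without SEM-4 are mixed. The transgene was introduced by bombardment, so sem-4 and unc-119 are present in extra copies. In RefSeq's gene table (assembly WBcel235) neither of those genes is on chromosome IV. No label says whether the 2 replicates came from separate cultures.

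The Spalt family of zinc-finger proteins, which act in the nucleus as regulators of transcription, is represented in this worm by SEM-4. The protein is known for roles in neuronal, mesodermal and vulval cell fates, and for restricting the touch receptor neuron fate through mec-3, a LIM homeobox gene. That gene is on chromosome IV in the same RefSeq table. Transcription factors are found by ChIP-seq as short stretches in which immunoprecipitated DNA is in excess over input, and closely spaced sites can be joined into broader stretches by a peak caller. Chromosome IV is an autosome that also carries the large clusters of 21U-RNA genes, the piRNAs of this worm. No annotation on the build of the files (WormBase WS220) was used, so regions are given by position and none is assigned to mec-3, to the 21U-RNA clusters or to any other gene.

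The deposited lists give the limits of each region and the q-value of the authors' PeakSeq call. Strength is given here as −log10 q. The lists hold no read counts, so depth is unknown and strength in separate lists cannot be compared as binding. Intervals are 95% intervals for counting error (Wilson for shares, order statistics for medians). Regions of 1 chromosome are not replicates and each replicate list comes from 1 library, so chromosome IV is described beside the other chromosomes with no test of the difference.

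Chromosome IV carried the most regions of the 6 chromosomes in the combined list, and they were comparatively short. The 1552 regions were 20.5% of the list on 17.4% of the span, where a chromosome's span ends with the last base of any region called on it in the 3 lists. The other 5 chromosomes carried between 1107 (X) and 1374 (III). In replicate 1, chromosome IV again held the most regions, 1143 against at most 1044 on III. In replicate 2 it held 576 and came after III, with 603. Density put IV second to III in every list, with 88.8, 65.4 and 33.0 regions per Mb in the combined, replicate 1 and replicate 2 lists.

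The many regions of IV did not cover a larger share of the chromosome in the combined list. They covered 632 kb, or 3.61% of the span, in a range from 2.87% on V to 4.24% on III, with only V below IV. In replicates 1 and 2 the covered share of IV was 2.41% and 1.57%, within the range of the other chromosomes. Median width on IV was 331 bp (321 to 344), and only III, at 324 bp (313 to 334), had a lower median. The widest region of IV measured 4079 bp, while the widest on each of the other chromosomes measured at least 5798 bp. IV also had the lowest maximum in both replicate lists, at 2685 bp and 2304 bp. Median strength was 3.88 (3.73 to 4.08) on IV, within the range of the others from 3.52 on X to 4.41 on III.

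Regions of at least 1000 bp numbered 73, or 4.70% (3.76 to 5.87), against 7.55% on the other chromosomes together. IV had the lowest such share of all 6 chromosomes in each of the 3 lists. At the other end, 88 regions of IV, or 5.67% (4.63 to 6.93), were shorter than 50 bp, against 3.83% elsewhere. The share on V was 5.30% (4.2 to 6.66) and that on III 4.66% (3.66 to 5.90), both with intervals overlapping that of IV. In replicate 1 such regions made up 7.70% of IV and 7.0% of V. In replicate 2 there was 1 on IV (0.17%), with III higher at 0.50%. Of the 88 combined regions, 6 were a single base pair as deposited. None of the 88 overlapped both replicate lists, and 55, or 62.5% (52.1 to 71.9), overlapped neither. On the other chromosomes 0 of 230 such regions overlapped both and 69.1% (62.9 to 74.7) overlapped neither.

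The strongest regions of IV were called in both replicates, and most of them lay at nearly the same place in each. Among members overlapping both lists, the 15 with the lowest combined q-values were also the 15 lowest of all on IV. Their ranks in the complete lists ran from 4 to 105 (combined), from 5 to 223 (replicate 1) and from 3 to 322 (replicate 2). Their median width was 2077 bp, 6.27 times the median of IV, with a range from 436 to 3330 bp. In all 15 the strength was highest in the combined list, lower in replicate 1 and lowest in replicate 2, taking the best overlapping region of each replicate. Over all overlapping pairs on IV, replicate 1 fell below the combined list in 92.5% and replicate 2 in 99.3%. On the other chromosomes these shares were 94.8% and 99.1%. The 15 were also chosen by combined q-value, which favours a high combined strength. In 9 of the 15, a single region in each replicate matched the combined one, and in 6 at least 1 replicate had it in pieces. At rank 8 on IV, for example, the best replicate 2 region was 525 bp wide, against 1452 bp in replicate 1.

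The strongest region of IV spanned 14032444 to 14034707 (2264 bp, q = 3.31e-169). Its strength was 168 in the combined list, 104 in replicate 1, where it ranked 5, and 70.9 in replicate 2, where it ranked 3. Its ends in the replicates lay at 14032463 and 14034869, and at 14032461 and 14034695, so the 3 calls nearly coincide. It stood 18497 bp from its left neighbour and 1223 bp from its right one, in the sparsely bound right part of the chromosome described below.

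The next strongest lay close to the middle of the span, from 8430730 to 8433132 (2403 bp), with strengths of 107, 68.2 and 38.9 in the combined, replicate 1 and replicate 2 lists. Its replicate 1 counterpart, at 2685 bp, was the widest IV region of that list. Its replicate 2 counterpart, at 2304 bp, was likewise the widest there.

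Ranks 3 and 4 on IV went to short regions, unlike the broad ones around them. The region from 4749715 to 4750258 was 544 bp wide and had strengths of 77.4, 65.4 and 30.1. Replicate 1 reached 0.85 of the combined strength here, the highest such ratio among the 15. The region from 654681 to 655116, near the left end, was 436 bp wide, with strengths of 67.2, 50.5 and 38.9. Its replicate 2 strength was 0.58 of the combined value, again the highest ratio of the 15 for that replicate. Their ranks in the complete lists were 31 and 41 (combined), 17 and 30 (replicate 1), and 30 and 15 (replicate 2).

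Ranks 5 to 9 were broad. The region from 11954568 to 11957897 (3330 bp) had strengths of 64.8, 40.5 and 22.3, and was divided into 3 regions in replicate 1 and 2 in replicate 2. From 11592861 to 11594769 (1909 bp), a single region in each list gave 56.3, 34.5 and 23.3. The region from 3232647 to 3234994 (2348 bp) gave 54.6, 32.5 and 20.9, and no combined region followed for 59603 bp on its right. That from 10934987 to 10936512 (1526 bp) gave 54.4, 31.1 and 13.1. From 10820037 to 10822724 (2688 bp) the values were 49.7, 24.0 and 20.2, so the replicates stood closer together there than in the regions just named.

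The last 6 of the 15 had combined strengths between 40.4 and 47.7. Among them the region from 13081600 to 13083676 differed most between replicates, with 30.9 in replicate 1 (rank 75) and 8.28 in replicate 2 (rank 322), where it was split in 2. The region from 17277150 to 17278800 differed least, with 23.3 and 21.4, and was the nearest of the 15 to the right end of the chromosome. The others were from 8794719 to 8795676, from 8067430 to 8069993, from 9196296 to 9197320 and from 14610816 to 14613690. By position, 2 of the 15 lay in the left 25% of the span, 10 in the central 50% and 3 in the right 25%.

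**Figure D1:**
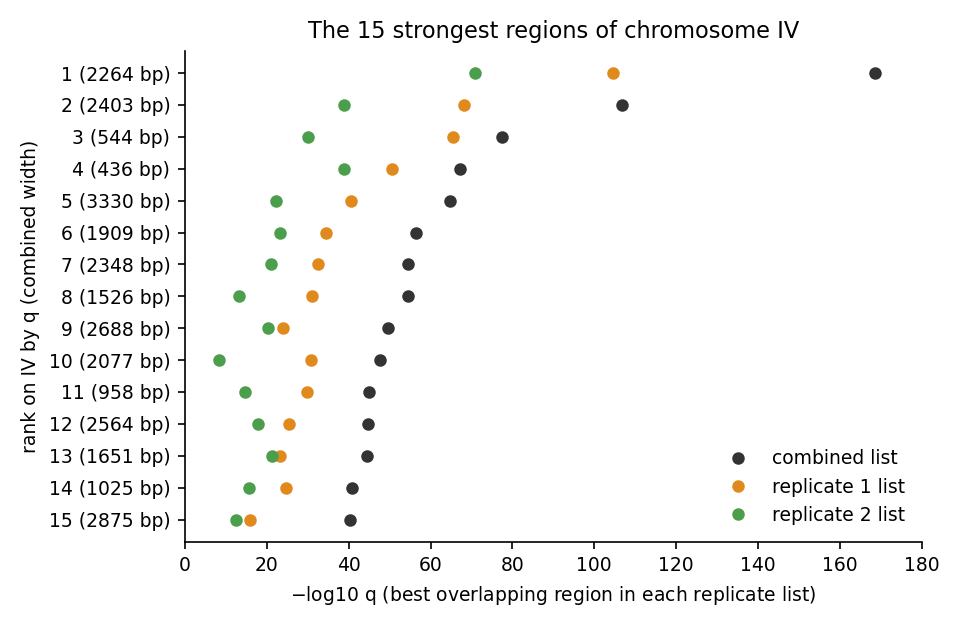
Strength (−log10 q, x axis) of the 15 strongest regions of chromosome IV, ranked from 1 at the top with the combined width in brackets, in the combined list (dark), replicate 1 (orange) and replicate 2 (green). Combined values run from 40.4 to 168, and in every row replicate 2 is lowest, while rows 3 and 4 are narrow regions of 544 and 436 bp.

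Chromosome IV was less well represented at the very top of the list than further down. It held 5 of the 50 strongest combined regions (10.0%, 4.35 to 21.4) and 13 of the strongest 100 (13.0%, 7.76 to 21.0). Among the strongest 1000 it held 217, or 21.7% (19.3 to 24.4), close to its 20.5% of the whole list. In replicate 1 it held 12% (7.0 to 19.8) of the strongest 100, below the 21.2% that it held of the whole list. In replicate 2 the same shares were 16.0% (10.1 to 24.4) and 22.8%, so there, as in the combined list, the interval includes the share of the whole list.

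By support from the replicate lists, the regions of IV fell into 4 classes. Support here means overlap between lists of the same 2 ChIP libraries, so it is not independent evidence for a combined region. Of the 1552, 481 overlapped both replicates, or 31.0% (28.7 to 33.3), against 27.2% of regions on the other chromosomes. Replicate 1 alone supported 539, or 34.7% (32.4 to 37.1), against 36.9% elsewhere, and replicate 2 alone supported 79, or 5.09% (4.10 to 6.30), against 3.73%. The remaining 453, or 29.2% (27 to 31.5), were in neither list, against 32.2% elsewhere. Much of the gap to the other chromosomes rests on chromosome I, where 46.9% were in neither list and 15.2% in both. Without chromosome I the others stood at 30.0% in both and 28.8% in neither, so the share of IV in neither was then slightly above theirs. Chromosome III alone had more support than IV, with 35.5% (33.0 to 38.1) in both and 24.5% (22.3 to 26.8) in neither.

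The 481 regions found in both had a median strength of 9.89 and a median width of 535 bp. Those in replicate 1 alone had medians of 3.72 and 292 bp, and those in replicate 2 alone 3.85 and 347 bp. The 453 in neither had medians of 2.51 and 204 bp. Strength was thus highest in regions found in both, lowest in those found in neither, and nearly equal in the classes with a single replicate. The other chromosomes showed the same order, with medians of 10.3 and 581 bp in both, and 2.55 and 272 bp in neither. Although they make up 31.0% of the members, the regions in both held 324 kb of the 632 kb covered on IV. On the other chromosomes 27.2% of regions were in both, and they held 1374 kb of 2928 kb.

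Support also followed width. Of the 73 regions of IV at least 1000 bp wide, 68 were in both replicates, or 93.2% (84.9 to 97.0), against 76.8% (72.7 to 80.5) on the other chromosomes and 80.4% (76.1 to 84.1) without chromosome I. From 500 bp to just under 1000 bp the share in both was 62.5% (57.1 to 67.7) on IV, 51.9% (48.9 to 54.8) on II, III, V and X together, and 64.0% (57.8 to 69.7) on III alone. From 200 bp to just under 500 bp it was 26.6% (23.6 to 29.7), and of the 355 regions under 200 bp a single one was in both. On the other chromosomes together the share from 200 bp to just under 500 bp was 19.7% (18.4 to 21.1). Chromosome III stood at 33.2% (30.0 to 36.7) there, above IV, and at 88.6% (79.7 to 93.9) from 1000 bp upwards, where its interval overlapped that of IV. At these widths the regions of IV were also stronger than those of the other chromosomes together. Median strength was 18.4 against 15.2 from 1000 bp, 8.09 against 6.33 from 500 bp and 3.92 against 3.65 from 200 bp. On III alone it was 20.4, 7.88 and 4.28, so III was above IV from 1000 bp and from 200 bp. Under 200 bp the median strength was slightly lower on IV than on the other chromosomes together. The part of strength in the shares by width was not tested.

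**Figure D2:**
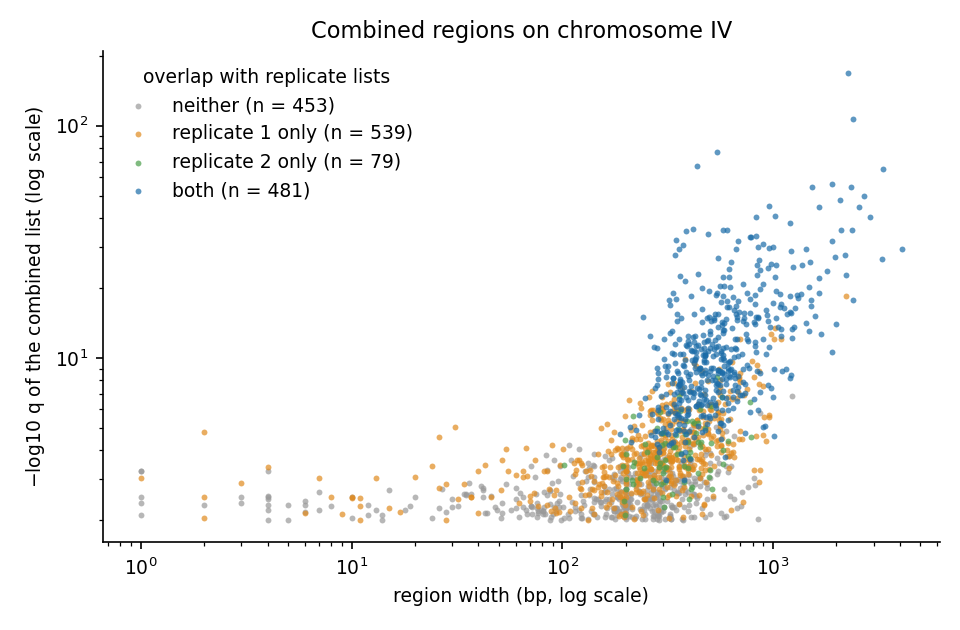
Width (bp, log scale) against strength (−log10 q, log scale) of the 1552 combined regions of chromosome IV, coloured by which replicate lists they overlap. Regions in both replicates (blue, n = 481) fill the upper right, with a median of 535 bp, while regions in neither (grey, n = 453) lie at the bottom, with a median of 204 bp and a tail down to 1 bp.

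When the whole combined list was divided into 10 equal classes of strength, support on IV fell from nearly complete to none. All 3 lists come from the same 2 ChIP libraries, so support and combined strength are not independent. In the strongest class (strength of 13.3 or more on IV), 159 of 161 regions were in both replicates, or 98.8% (95.6 to 99.7). The share was 90% in the second class, 60.6% in the third, 35.6% in the fourth and 11.4% in the fifth. It was 0 of 462 regions over the 3 weakest classes. The share in neither list rose from 0 in the 2 strongest classes to 80.8% (73.8 to 86.3) in the weakest. On the other chromosomes it likewise rose from 0 to 85.4% (82.4 to 88.0), or to 82.4% (78.7 to 85.5) without chromosome I.

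Against II, III, V and X together, IV had the higher share in both in 6 of the 10 classes and the lower in 2, and the intervals overlapped throughout. At a given strength the replicates thus supported IV about as often as those chromosomes.

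Median width at a given strength was lower on IV. Its intervals overlapped those of the other chromosomes together in the stronger classes, 1 to 5, and lay apart only in classes 6 to 10. Median width fell from 827 bp (724 to 923) in the strongest class to 177 bp (137 to 198) in the weakest, and in all 10 classes it was below that of the other chromosomes together. In class 2, for example, the medians were 519 bp (477 to 563) on IV and 582 bp (554 to 609) elsewhere, and in class 9 they were 187 bp (161 to 200) and 258.5 bp (246 to 269). In the same class 2, 12 regions of IV (7.06%) and 16.1% of the others reached 1000 bp.

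Taken 1 chromosome at a time, IV was the narrower in 10 of 10 classes against I, V and X, and in 9 of 10 against II. Against III it was the narrower in 2 and the wider in 8. In replicate 1, IV was narrower in 10 of 10 classes against I, II, V and X and in 6 of 10 against III. In replicate 2, the counts were 10 against I, V and X, 9 against II and 1 against III. Short regions at a given strength were therefore a trait of both IV and III.

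**Figure D3:**
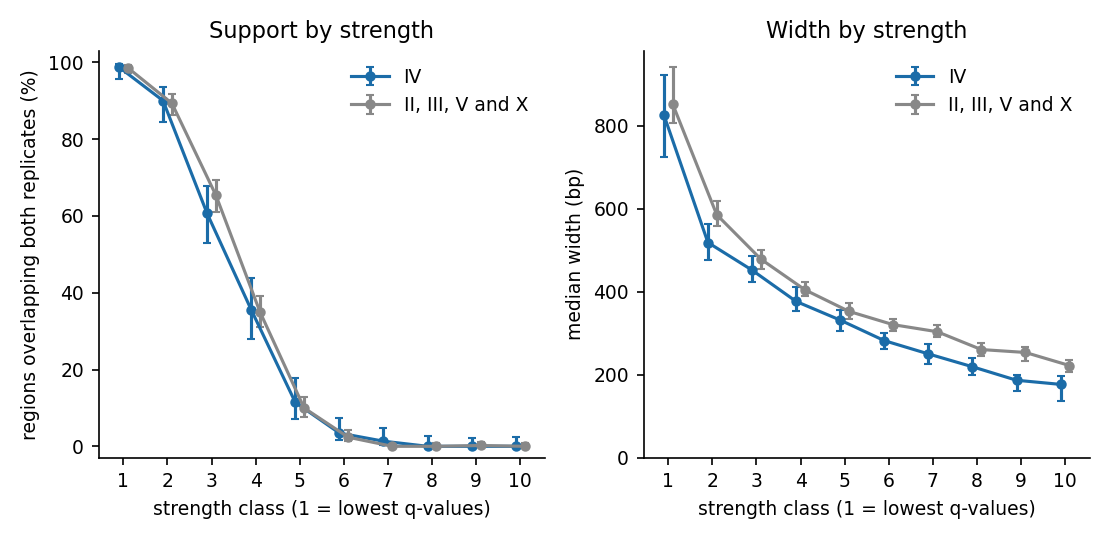
Left, share of regions overlapping both replicates (%, 95% Wilson intervals), and right, median width (bp, 95% order-statistic intervals), in 10 equal strength classes of the combined list for chromosome IV (blue) and for II, III, V and X together (grey). The shares of both fall together from about 98.8% to 0, while the width of IV lies below the grey line in each class, from 827 bp down to 177 bp.

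Comparing the replicate lists on IV asks how far the same places were called in each. In replicate 2, a counterpart in replicate 1 was found for 490 of the 576 regions on IV, or 85.1% (81.9 to 87.7), against 87.1% on the other chromosomes. In replicate 1, a counterpart was found for 487 of 1143, or 42.6% (39.8 to 45.5), against 39.6% elsewhere and 41.7% without chromosome I. These shares moved with list length: when both lists were taken at the same length, the shares on IV were 67.4% for replicate 2 and 69.6% for replicate 1. In base pairs, the 208 kb common to the lists made up 49.3% of replicate 1 and 76.0% of replicate 2. On the other chromosomes these shares were 46.7% and 80.1%, and the share of replicate 2 was lowest on IV of all 6 chromosomes.

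On IV, agreement was highest for strong regions, and the same counts were not made for the other chromosomes. The 25 strongest IV regions of each replicate were all in the other, as were 97 of the strongest 100 of replicate 1 and 100 of the strongest 100 of replicate 2. Further down, 317 of the strongest 400 in replicate 1 and 368 of the strongest 400 in replicate 2 had a counterpart. The strongest IV region of replicate 1 without one, from 11024949 to 11026507 (q = 3.79e-15), ranked 49 on IV. In replicate 2 the first without one, from 7791233 to 7791605 (q = 2.58e-06), ranked 132 on IV.

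Over 495 pairs of overlapping IV regions, the strengths had a Spearman's rho of 0.66 and, after taking logarithms, a Pearson's r of 0.73. These describe regions from 1 pair of libraries, whose strengths share width and local background. Replicate 2 had the lower strength in 389 pairs, or 78.6% (74.8 to 82.0), against 79.9% (77.9 to 81.7) on the other chromosomes, with a median ratio of replicate 2 to replicate 1 of 0.72 (0.68 to 0.74). The ratio ranged from 0.61 on I to 0.77 on III among the other chromosomes. Unshared regions of replicate 1 on IV had a median strength of 2.73 and a median width of 221 bp, against 5.54 and 436 bp for shared ones.

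Where 1 combined region met exactly 1 region of each replicate, the calls lay close together. Such triplets made up 445 of the 481 regions in both, or 92.5% (89.8 to 94.5), against 91.9% on the other chromosomes. The midpoints of the replicate regions lay a median of 37.0 bp (32.5 to 43.5) apart, and in 270 of the 445, or 60.7% (56.1 to 65.1), they were within 50 bp of each other. On the other chromosomes the median distance was 39.5 bp (37.5 to 41.5) and the share within 50 bp 58.5% (56.0 to 60.9), so IV lay close to them in all of these values. Median widths of the triplets on IV were 515 bp in the combined list, 422 bp in replicate 1 and 404 bp in replicate 2. Combined regions that joined 2 or more replicate 1 regions were rare, 24 of 1020 (2.35%), against 2.73% on the other chromosomes.

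The 3 widest regions of IV were each divided in at least 1 replicate. The widest, from 16167508 to 16171586 (4079 bp, strength 29.4), covered 4 regions of replicate 1 and 1 of replicate 2. The best of the 4 had a strength of 8.54 and ranked 656, and the replicate 2 region had 3.61 and ranked 1148, while the combined region was among the strongest 38 on IV. The next in width was the 3330 bp region at rank 5 on IV. After it came the region from 13392328 to 13395627 (3300 bp, strength 26.8), with 2 regions in replicate 1 (best 12.7) and 1 in replicate 2 (6.56).

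Regions with support from a single replicate ranked below the 15 above by definition, since those 15 are the strongest of all on IV. The strongest in replicate 1 alone, from 11024898 to 11027109 (2212 bp, strength 18.4), ranked 88 on IV and had 14.4 in replicate 1. Next were the regions from 4514752 to 4515776 and from 8825965 to 8826938, with 13.5 and 12.7 in the combined list and 7.01 and 4.91 in replicate 1. The strongest in replicate 2 alone ran from 3014540 to 3015081 (542 bp), with 8.28 in the combined list and 5.36 in replicate 2. It was followed by 7791233 to 7791589 (6.82 and 5.59) and 5598389 to 5598963 (6.77 and 5.17).

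The strongest regions in neither list were 11693693 to 11694922 (1230 bp, strength 6.86), 11352576 to 11353443 (5.77) and 12398550 to 12399087 (5.06). All 3 lay between 65.0% and 71.0% of the way along the span, and each had a combined neighbour within 769 bp. They ranked 411, 506 and 579 of the 1552 on IV.

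Most replicate regions of IV overlapped the combined list. Of the 1143 in replicate 1, 1040 overlapped it, or 91.0% (89.2 to 92.5), against 93.4% (92.6 to 94.1) on the other chromosomes. That share was the lowest of the 6 chromosomes, with V next at 91.5% (89.5 to 93.1). Of the 576 in replicate 2, 572 overlapped it, or 99.3% (98.2 to 99.7), against 99.2% elsewhere. Those left out of replicate 1 had a median width of 54 bp, and 50 of them were under 50 bp. On the other chromosomes the median was also 54 bp, and 134 of 282 were under 50 bp, so this was not particular to IV. None of those on IV had a strength above 3.85, the value of the region from 17094245 to 17094633. The next were 4234248 to 4234274 (3.69) and 5495362 to 5495548 (3.66). Of the 4 left out of replicate 2, the strongest, from 13549275 to 13549669 (2.95), also overlapped a replicate 1 region. It was followed by 13010762 to 13011093 (2.35) and 1867838 to 1868217 (2.26). No strong IV region of a replicate was therefore outside the combined list.

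Along the chromosome, regions were densest in the centre and sparser on the right than on the left. By midpoint, 969 combined regions, or 62.4% (60.0 to 64.8), fell in the central 50% of the span, against 62% on the other chromosomes. The left 25% held 348 regions, or 79.7 per Mb, the central 50% 111 per Mb, and the right 25% 235 regions, or 53.8 per Mb. The left part thus held 1.48 times as many regions as the right. In replicate 1 the counts were 260 and 183, and in replicate 2 they were 114 and 80, which gives ratios of 1.42 and 1.43.

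Other chromosomes leaned to either side. In the combined list the ratio of left to right was 1.44 on V and 1.03 on I, and below 1 on X (0.75), III (0.61) and II (0.48). The ratio of IV was the highest of the 6 in the combined and replicate 1 lists, and that of V was in replicate 2 (1.5), so a leftward excess was not particular to IV. The left part of IV, with 79.7 regions per Mb, was the densest left part of any chromosome.

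**Figure D4:**
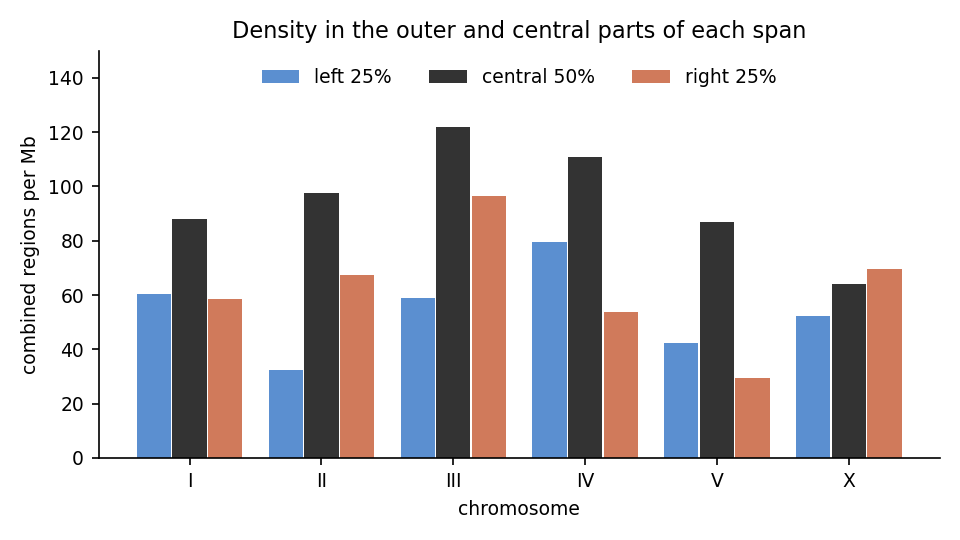
Combined regions per Mb (y axis) in the left 25%, central 50% and right 25% of the span of each chromosome (x axis), 1 bar per part. Chromosome IV stands at 79.7, 111 and 53.8, with its left bar the highest left bar of the 6 chromosomes.

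By 1 Mb bins, the combined list had 89.7 ± 27.9 regions per bin (SD over 17 full bins). The highest bins, from 5 to 6 Mb and from 7 to 8 Mb, held 128 each, and the lowest, from 15 to 16 Mb, held 39. From 15 Mb onwards the counts were 39, 51 and, in the last partial bin, 27. The bins from 4 to 13 Mb all held at least 88. Over the full bins replicate 1 ranged from 27 to 98 and replicate 2 from 13 to 61, with the same lowest and highest places, 15 to 16 Mb and 7 to 8 Mb. Across the 17 bins, Spearman's rho between the replicate counts was 0.92, a description of neighbouring bins that are not independent.

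The parts of the chromosome differed in the number of regions more than in their kind. Median strength was 3.86 (3.53 to 4.10) in the left part, 3.92 (3.74 to 4.22) in the centre and 3.72 (3.31 to 4.32) in the right part. Median widths were 320, 338 and 324 bp. The share in both replicates was 27.3% (22.9 to 32.2), 32.8% (29.9 to 35.8) and 28.9% (23.5 to 35.0), with overlapping intervals. Between 7 and 8 Mb it was 43.0%, the highest of all bins.

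**Figure D5:**
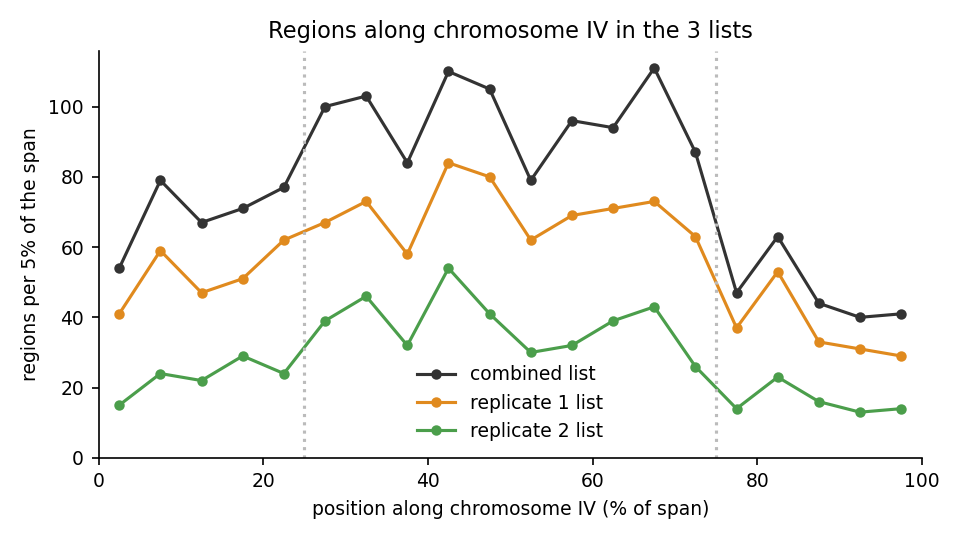
Number of regions (y axis) in each 5% of the span of chromosome IV (x axis, % of span) in the combined list (dark), replicate 1 (orange) and replicate 2 (green), with dotted lines at 25% and 75%. The combined counts fall from 87 to 47 across the 75% line and stay at 63 or less to the right of it, and both replicates fall at the same place.

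Regions of IV often lay near one another. A neighbour within 5 kb was found for 1213 of the 1552, or 78.2% (76.0 to 80.1), against 72.7% on the other chromosomes, and the median gap was 3523 bp on IV and 4720 bp elsewhere. IV had the highest such share of the 6 chromosomes, with 75.6% on III next. Within 10 kb the shares of IV and III were 88.9% and 89.0%. In replicate 1 the 5 kb share on IV was 72.4% against 63.7% elsewhere. In replicate 2 it was 58.0% against 51.6%, with III (60.0%) and V (58.5%) above IV. Density also differed between the chromosomes, and its part in these shares was not tested. Regions with a neighbour were stronger and wider than the 339 without, with median strengths of 4.16 (3.92 to 4.37) and 3.28 (3.08 to 3.46) and median widths of 356 bp and 276 bp. They were also in both replicates more often, at 34.0% (31.4 to 36.7) against 20.4% (16.4 to 25). This contrast was not made for the other chromosomes, so it cannot be called particular to IV.

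The 1213 regions formed 331 chains, in which each gap was at most 5 kb, and 7 chains had 10 members or more. The largest chains had 13 members. One ran from 4014515 to 4035241 (20.7 kb), with 6 members in both replicates and 5 in neither, and its strongest member, from 4024027 to 4025024 (q = 7.04e-31), ranked 33 on IV. The other ran from 5746892 to 5766040 (19.1 kb), with 3 members in both replicates, 8 in replicate 1 alone and 2 in neither. A chain of 12, from 10807944 to 10826336, held the region at rank 9 on IV.

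The densest 100 kb bins were from 11700001 to 11800000, with 24 combined regions, and from 5700001 to 5800000, with 23, where the median of 174 bins was 8. Their strongest regions had strengths of 12.4 and 13.1 and ranked 176 and 163 on IV. The first held 14 regions of replicate 1 and 7 of replicate 2, and 4 of its 24 members were in both replicates. The second held 15 and 6, with 6 of its 23 in both.

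The 3 longest stretches without a combined region were all in the right part of the chromosome. They ran from 15723981 to 15931279 (207 kb), from 15049839 to 15237122 (187 kb) and from 16214726 to 16382103 (167 kb), and neither replicate had a region inside any of them. Of the 59 gaps over 50 kb on IV, 23 were in the right 25% of the span, 15 in the left 25% and 21 in the central 50%. Mappability and repeat content were not examined, so a gap shows only where no region was called.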

How the data were processed

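The data were 3 deposited lists of regions, 1 per ChIP library and 1 combined. The build is WormBase WS220, per the file headers. Comment lines name 5, 4 and 5 regions, in the combined, replicate 1 and replicate 2 files, as changed in structure by a conversion from another build. None of these is on chromosome IV. Column 2 of the deposited files names PeakSeq. The authors' q-values are used as deposited, the largest on IV being 0.00994, 0.00997 and 0.00985. The sources used here do not give the PeakSeq version, aligner, filters, control or way of combining replicates, and the inputs enter only through those calls.

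Overlap meant at least 1 shared base pair. Counts were made in Python 3.11.15 with numpy 2.4.6, pandas 2.3.3, scipy 1.17.1 and matplotlib 3.10.9, and overlap counts on IV equalled those of bedtools 2.31.1. The overlap and interval functions were tested on simulated lists. Named regions followed a rule: the 15 strongest in both replicates, 3 for each other class of support, the 3 widest, 3 chains, 2 bins, 3 gaps and 3 per replicate outside the combined list. The chromosome, this rule and the measures were chosen with earlier results of these data known. Lists were compared under stricter overlap, a q limit of 0.001, the strongest 50%, single replicates, equal lengths, other distances and without chromosome I; removal of regions under 50 bp was chosen after seeing the data. No sequence is given because no genome on WS220 was used.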

Additional observations from a re-analysis of the deposited data

How the results depend on the processing

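Of 85 values recomputed with 1 choice changed, 41 stayed within the interval of the reported value (counts within 1.5 times), 43 moved outside it and 1 turned round. The share of IV in neither replicate minus that of the other chromosomes was -2.97 points, and 0.38 points without chromosome I; for both replicates the difference went from 3.75 to 1.02 points, and to 7.85 in the strongest 50% of the list. The share in both was 26.3% with at least 50% of the region covered, 26.2% with 50% reciprocal overlap, 45.2% at q of at most 0.001 and 61.7% in the strongest 50%; the share in neither was 33.9%, 36.3%, 10.2% and 2.48%. With either replicate list left out, the share overlapping the other was 36.1% to 65.7% and the share without overlap 34.3% to 63.9%. A stricter overlap can only lower the share in both and raise the share in neither. Leaving out a replicate list can only raise the share overlapping every list used and the share without overlap. The cause of the other shifts was not tested.

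When replicate 2 alone was used, IV had 576 regions, the median width was 395 bp, the width difference to the other chromosomes -51 bp in place of -32, and the central share 66.3%. With replicate 1, replicate 2, q of at most 0.001 or no region under 50 bp, median strength was 3.33, 3.40, 5.55 and 4.09, and median width 312 bp, 395 bp, 402 bp and 346 bp. The share with a neighbour was 72.4% in replicate 1, 58.0% in replicate 2, 72.4% at the stricter q, 39.7% within 1 kb and 88.9% within 10 kb. Support of the strongest class was 94.3% with 5 classes and 78.9% with reciprocal overlap, and 86.8% of the weakest class was then in neither. Between replicates, reciprocal overlap gave shares of 37.4% of replicate 1 and 74.3% of replicate 2, with a rho of 0.74. Lists of equal length gave 69.6% and 67.4%, and a ratio of 0.64. The shares of replicates 1 and 2 overlapping the combined list were 78.0% and 87.3% with reciprocal overlap and 98.1% and 100.0% at the stricter q. The density ratio, 1.20 to 1.40, the left-to-right ratio, 1.42 to 1.54, and the sign of the width difference held in every alternative run for them.

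No paired analysis was possible because no test was made and no list of the inputs was analysed here. Depth is unknown, so the smaller replicate 2 list cannot be read as less binding.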

Other observations

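The pair of short, strong regions of chromosome IV also stood at the top when regions under 600 bp were ranked by q-value over all chromosomes, a limit chosen after the values were seen. In the combined list the region from 4749715 to 4750258 came first and that from 654681 to 655116 held place 3, with a region on II from 10563264 to 10563703 (strength 75.6) between them and regions on III in places 4 and 5. In replicate 1 the pair held places 1 and 4 (strengths 65.4 and 50.5), and in replicate 2 places 5 and 1 (30.1 and 38.9). Among the 20 strongest such regions of the combined list, 6 were on IV, 5 on III, 3 on II and 2 each on I, V and X, while IV held 21.6% of all 6026 regions of that width.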
